A study of Caenorhabditis elegans with 2 samples.

Results

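The pyruvate dehydrogenase complex turns pyruvate into acetyl-CoA, and the tricarboxylic acid (TCA) cycle oxidises that acetyl-CoA in the mitochondrial matrix. The dehydrogenase is built from E1 (an alpha and a beta subunit), E2, which carries a lipoyl arm, and E3, which reoxidises that arm and also serves the 2-oxoglutarate, branched-chain and glycine cleavage complexes. LIN-35 is the Rb-family pocket protein of Caenorhabditis elegans and, within the DREAM complex, is best known as a repressor of cell cycle and germline genes. Binding of LIN-35 was described here at 10 nuclear genes of this pathway, of 19973 protein-coding genes on the nuclear chromosomes: pdha-1, pdhb-1, dlat-1 and dld-1 for E1 alpha, E1 beta, E2 and E3, ogdh-1 and dlst-1 for E1 and E2 of 2-oxoglutarate dehydrogenase, and cts-1, aco-2, fum-1 and mdh-2 for citrate synthase, aconitase, fumarase and mitochondrial malate dehydrogenase. The list was selected on the signal at dld-1, which has one of the strongest peaks of the series, so the values below are descriptions and no test was made over the members. A gene was given every peak with a summit in its body or no more than 1000 bp from the 5′ end of its record.

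The binding data came from chromatin immunoprecipitation with sequencing (ChIP-seq) on whole L1 larvae of mixed sex, in 1 group of 2 biological replicates. The animals were of strain YL409, with the genotype unc-119(ed3)III and the transgene vrIs60, in which the lin-35 promoter and 3′UTR flank LIN-35 tagged with GFP and FLAG, next to a functional unc-119 copy. The antibody label reads lin-35 and the target is described as eGFP-lin-35. No lin-35 allele is named in the labels, and no other genotype, stage or tissue was analysed here, so binding in single tissues of the larva is not resolved. Each peak carries the authors' signal value, whose scale differs between lists, so ranks by signal (1 is the strongest) are given beside it. The 3838 peaks in the authors' list thresholded by irreproducible discovery rate (IDR peaks) are the strongest of the 30000 peaks called on the pooled replicates, and the replicate lists held 23835 nuclear peaks and 30000 peaks. Read depth is unknown, and replicate numbers name the replicates as the labels do.

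The 30-base sequences below, on the strand of each gene in WBcel235 (the same assembly as ce11), show what lies at the summits. The first pair carries in capitals the stretch of 13 bases that the windows at dld-1 (E3) and dlat-1 (E2) share, and the next pair the words read by DREAM's DNA-binding subunits. The last 3 show the summit base in capitals at IDR peaks where none of the motifs searched was found within 50 bp.

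dld-1, chrIV:14464245-14464274, plus strand: ctgtaattgCGGAGTGTCGTTGcaagctca
dlat-1, chrV:14447582-14447611, minus strand: tgtttaaaaCGGAGTGTCGTTGtccccgtc
mdh-2, chrIII:6608334-6608363, minus strand, E2F word in capitals: atgtgatttgaaTTGCCGCcgcgtgggtct
aco-2, chrIII:7973362-7973391, plus strand, CHR word in capitals: accccatgcgccTTCAAAcgagcatagcgc
cts-1, chrIII:10216877-10216906, minus strand: cactcattctctgcaGtgcacgagagcgag
pdhb-1, chrIV:3399278-3399307, plus strand: aacaccgcgacgccaTattgcacacatttt
fum-1, chrIII:7465554-7465583, plus strand: gttcgtttctctgtgAtctctgaatttttc

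Binding was uneven across the pathway, from the 4th strongest peak of the series at dld-1 to no pooled peak at pdha-1. IDR peaks stood at 6 of the 10 genes, dld-1, mdh-2, aco-2, cts-1, fum-1 and pdhb-1, where 19.0% of all protein-coding genes had one by the same rule. Within 500 bp of the 5′ end the count was again 6 of 10, against 13.6% of all genes. Among the 383 strongest IDR peaks were those of 3 members (dld-1, mdh-2 and aco-2), against 2.82% of all genes. The dld-1 peak led to the choice of the list, and without it 5 of 9 genes had an IDR peak and 2 of 9 had one among those 383. The median rank of the strongest IDR peak was 722 over the 6 genes, 1225 without dld-1, and 1450 over all 3797 genes with an IDR peak. The 5 other bound genes ranged from rank 109 to rank 2855.

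**Figure D1:**
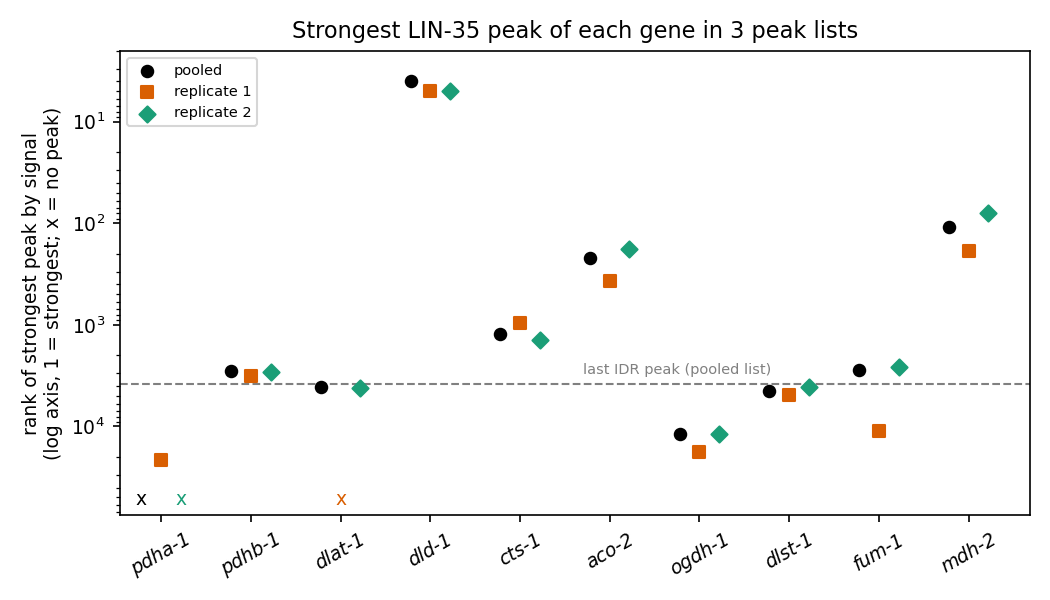
Rank by signal (log axis, 1 is the strongest) of the strongest peak assigned to each of the 10 genes in the pooled list and in each replicate list; a cross marks a list without a peak and the dashed line the last of the 3838 IDR peaks. dld-1 ranks 4 and 5, mdh-2 and aco-2 between 79 and 372, and pdha-1 has only a replicate 1 peak at rank 21547.

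The 4 subunits of pyruvate dehydrogenase spanned the full range of binding, from rank 4 to no pooled peak. At dld-1 (WBGene00010794, chromosome IV, 14464517 to 14469136, plus strand), the IDR peak had a pooled signal of 2708, 865 in replicate 1 and 1840 in replicate 2, and ranked 4, 5 and 5. Its summit lay 270 bp upstream of the gene, 262 bp in replicate 1 and 269 bp in replicate 2, so the replicates placed it 7 bp apart. No other protein-coding gene started within 1000 bp of it, although the noncoding gene LLC1.120, on the opposite strand, starts 73 bp away and covers the summit. The peaks ranked next to it were nearest to sec-61.G (rank 3, signal 3004) and eelo-2 (rank 5, signal 2616).

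At pdhb-1 (WBGene00015413), the E1 beta gene, the IDR peak was near the lower end of the list (chromosome IV, 3399131 to 3399454, signal 80.8, rank 2855). It had a signal of 15.9 at rank 3216 in replicate 1 and 57.3 at rank 2934 in replicate 2. The summit lay 379 bp upstream of pdhb-1 but 62 bp upstream of the divergent gene dyf-3, which encodes a ciliary protein, so the peak was nearer to its neighbour. Which of these genes the binding concerns cannot be read from the peak.

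dlat-1 (WBGene00009082), the E2 gene, fell just below the IDR threshold. Its promoter peak (chromosome V, 14447417 to 14447740, summit 289 bp upstream) had a pooled signal of 50.8 at rank 4136, whereas the last IDR peak had 56.0 and the weakest members inside were pdhb-1 at 80.8 and fum-1 at 83.1. In replicate 2 the peak had a signal of 37.2 at rank 4215, and in replicate 1 no peak was assigned to dlat-1. The E2 gene thus had a peak in only 1 of the replicate lists. The divergent gene fntb-1 lies upstream, with 360 bp between it and dlat-1, so the summit was nearer to fntb-1. Which of these 2 genes the binding concerns cannot be read from the peak.

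pdha-1 (WBGene00011510, chromosome II, 8066285 to 8068184), the E1 alpha gene, had neither an IDR nor a pooled nor a replicate 2 peak. Its single entry was a replicate 1 peak inside the gene with a signal of 2.36 at rank 21547. On the same strand, ufd-2, a ubiquitin chain elongation factor, ends with 91 bp between it and pdha-1, and the nearest IDR summit lay 3866 bp upstream of pdha-1, at rank 1110 with a signal of 213. That summit was 322 bp upstream of ufd-2. Such close spacing on 1 strand is typical of worm operons, in which downstream genes are transcribed from the promoter of the first gene, but whether pdha-1 is in one was not tested here.

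At the entry to the cycle, citrate synthase and aconitase were both bound. The cts-1 peak (WBGene00000833, chromosome III, 10216757 to 10216960, summit 256 bp upstream) had a pooled signal of 192 at rank 1225. In replicate 1 it had a signal of 63.0 at rank 967 and in replicate 2 one of 121 at rank 1418, with summits 5 bp apart, the smallest distance among the 6 members. A pooled peak with a signal of 40.2 adjoined it, 470 bp upstream of the gene. The aco-2 peak (WBGene00000041, chromosome III, 7973245 to 7973511) was stronger, with a signal of 790 at rank 219, 159 at rank 372 in replicate 1 and 630 at rank 180 in replicate 2. Its summit lay 338 bp upstream of aco-2 and 7 bp inside the divergent gene eef-1B.1, a translation elongation factor subunit, in what the annotation gives as a 5′ UTR. Of the 6 IDR summits, that of aco-2 was the only one within another protein-coding gene. The noncoding gene F54H12.9, on the same strand as aco-2, starts 52 bp away and also covers the aco-2 summit.

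Of 2-oxoglutarate dehydrogenase, neither the E1 nor the E2 gene had an IDR peak, and the shared E3 gene was dld-1. dlst-1 (WBGene00020950), the E2 gene, had a pooled promoter peak under the threshold (chromosome V, 6709086 to 6709409, summit 147 bp upstream, signal 46.4, rank 4454). Both replicates held a peak that overlapped it. In replicate 1 that peak had a signal of 9.80 at rank 4946, with the summit 217 bp upstream. In replicate 2 it had a signal of 38.2 at rank 4136, with the summit 139 bp upstream. A weaker pooled peak lay 349 bp upstream, with a signal of 11.6. At ogdh-1 (WBGene00020679), the E1 gene, 4 weak pooled peaks were assigned, with signals from 10.5 to 17.8, and the strongest lay inside the gene 6669 bp from its 5′ end, in a coding exon. The promoter peak of ogdh-1, 204 bp upstream, had a pooled signal of 11.8 at rank 21865. In replicate 2 the order differed, and the promoter peak was the strongest, with a signal of 13.6 at rank 11855. The peak near the gene end was the weakest there, with a signal of 8.43. In replicate 1 the strongest peak was near the gene end, with a signal of 3.08. Both replicates placed that end summit in the 3′ UTR. An IDR peak with a signal of 143 at rank 1655 lay 1442 bp upstream of ogdh-1, outside the window of 1000 bp.

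The genes of the last steps of the cycle bound LIN-35 at very different strengths. mdh-2 (WBGene00003162) had the second strongest peak of the list (chromosome III, 6608172 to 6608499, signal 1155, rank 109), with a signal of 257 at rank 188 in replicate 1 and 900 at rank 79 in replicate 2. Its summit was 228 bp from mdh-2, on the upstream side, and 288 bp upstream of the divergent gene F20H11.4. fum-1 (WBGene00001503) had a weak IDR peak (chromosome III, 7465407 to 7465730, signal 83.1, rank 2802), and the summit was only 36 bp away from the gene, the closest of the 6. The replicates disagreed there, since the peak ranked 2629 in replicate 2, with a signal of 64.9, but 11188 in replicate 1, with a signal of 4.91. Only 3.38% of the 3732 IDR peaks found in both replicates ranked that low or lower in replicate 1, and the fum-1 summits of the replicates lay 41 bp apart, against a median of 36 bp over matched peaks within 200 ranks of it and 21 bp over all.

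**Figure D2:**
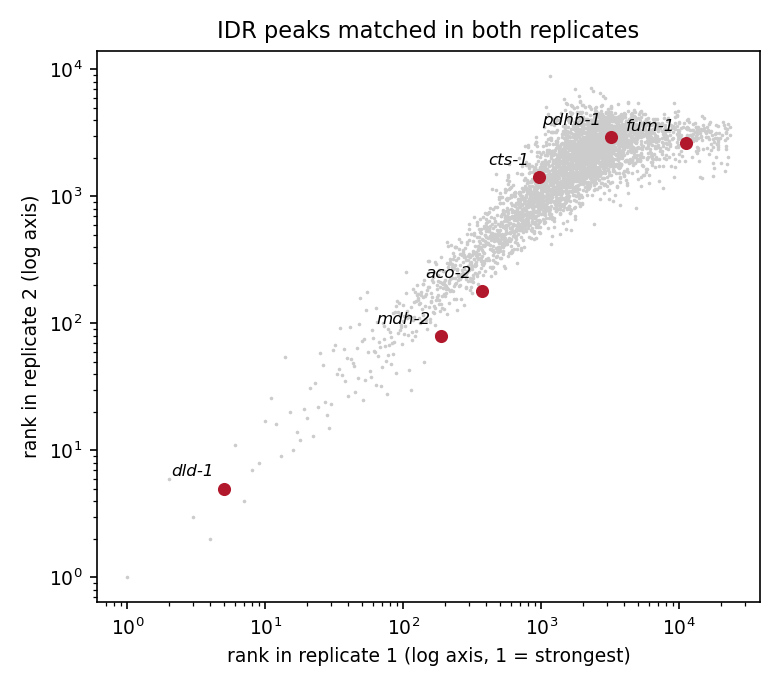
Rank in replicate 1 (x axis) against rank in replicate 2 (y axis), both log axes, for the 3732 IDR peaks with a peak in both replicates (grey) and the 6 member peaks (red). dld-1 sits at rank 5 in both, and fum-1 lies far to the right at rank 11188 in replicate 1.

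All 6 IDR summits were upstream of their gene, between 36 and 379 bp, with a median of 263 bp. Over all genes with an IDR peak by the same rule, 79.6% had the strongest summit upstream and the median position was 175 bp upstream. Those of fum-1 and mdh-2 were at 36 and 228 bp, and those of the other 4 genes between 256 and 379 bp. Neighbouring protein-coding genes that start close by shared the peaks of pdhb-1, aco-2 and mdh-2. With each peak counted only for the nearest start, the peak of aco-2 went to eef-1B.1 and that of pdhb-1 to dyf-3, which left 4 of 10 members, cts-1, dld-1, fum-1 and mdh-2, against 13.6% of all genes under that rule.

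**Figure D3:**
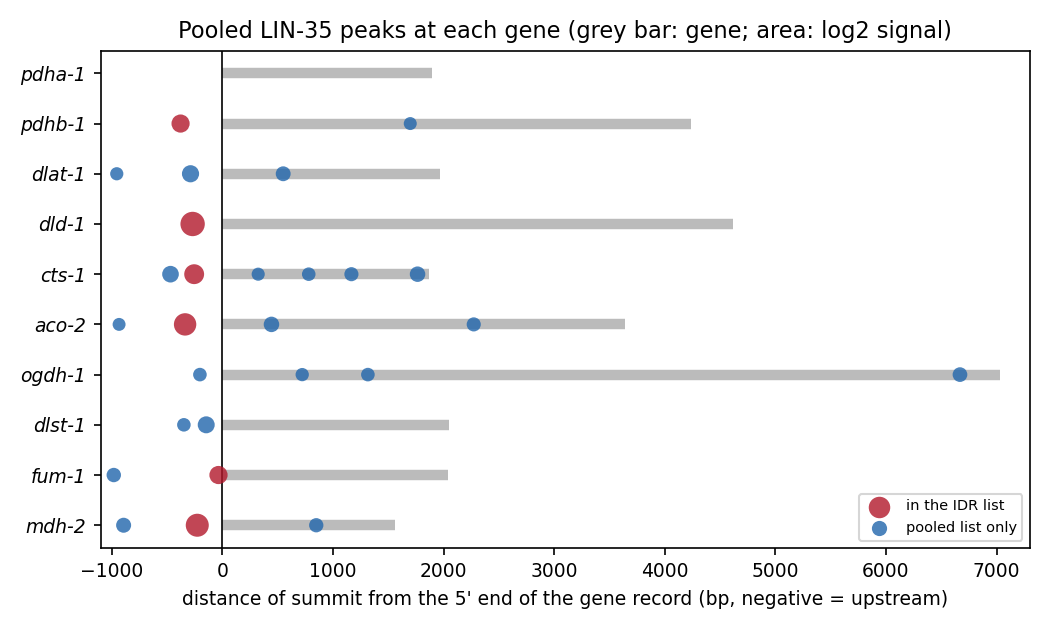
Distance of each pooled summit from the 5′ end of the gene (bp, negative is upstream) for the 10 genes, drawn with grey bars for the gene lengths; point area follows the log2 signal, red points are IDR peaks and blue points lie below the threshold. The red points all lie upstream, and pdha-1 has no point.

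Weak peaks were also assigned to most members. A pooled peak of any strength was found at 9 of 10 members, where 60.1% of all genes had one, and within 500 bp at 9 of 10, against 37.1%. In replicate 1, 9 of 10 had a peak by the rule (57.9% of all genes) and 8 of 10 within 500 bp (32.4%). In replicate 2, both counts were 9 of 10 (60.6% and 37.6% of all genes). Of the 27 pooled peaks at the members, 21 were under the IDR threshold, and 12 of these lay inside the gene, with signals from 9.49 to 24.4. Those inside fell in coding exons in 9 cases, introns in 2 and a 3′ UTR in 1. The strongest of them were at aco-2, 443 bp into the gene with a signal of 24.4, and at the end of cts-1 with a signal of 24.3. No member had an IDR summit inside the gene.

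The motifs were searched within 50 bp of the summit and also within 100 bp, the latter for words other than E2F only after the values were seen. E2F and DP, the heterodimer in DREAM, read the words TTCCCGC or TTCGCGC or TTGCCGC or TTGGCGC, and 1 of the 6 IDR windows held one on either strand, that of mdh-2. Such a word was present in 13.0% of all 3838 IDR windows of 101 bp and in 3.62% of windows of that length centred 200 bp upstream of all protein-coding genes. The same words reversed, as a control, were also more frequent in IDR windows (8.36%) than in promoter windows (1.81%). So the excess of E2F words in IDR windows was not particular to these words. The cell cycle homology region (CHR) words TTTGAA or TTCGAA, read by LIN-54, occurred at mdh-2 and aco-2, against 24.6% of IDR windows and 34.5% of promoter windows. At mdh-2 the CHR word stood directly before the E2F word, with 0 bases between and no overlap. Within 100 bp, CHR words were at 4 of the 6 (dld-1, cts-1, aco-2 and mdh-2), where 43.3% of IDR windows and 56.4% of promoter windows of that size held one, and E2F words at 2 (aco-2 and mdh-2), against 18.3% and 6.91%. The E-box CACGTG (3.80% of IDR windows and 1.53% of promoter windows), the GC box GGGCGG (5.34% and 2.28%) and the word GAGAGA (29.7% and 7.47%) were found at none of the 6 within 50 bp, and no match says only that these letters are not in the window. Within 100 bp the GC box was at cts-1 (9.09% of IDR windows and 4.67% of promoter windows). GC content of the windows ran from 38.6% at fum-1 and 42.6% at dld-1 to 54.5% at pdhb-1 and mdh-2, against a median of 47.5% over IDR windows and 33.7% over promoter windows.

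Longer identical stretches between member windows were looked for after the values were seen. The windows of dld-1 and dlat-1 shared CGGAGTGTCGTTG on the strand of each gene, printed in full above. That stretch occurred on either strand in 32 of the 3838 IDR windows (0.834%) and in 29 of 19973 promoter windows (0.145%). Among the IDR windows, 16 were among the 959 strongest peaks and 3 among the 959 weakest. The 16 include the dld-1 window, in which the stretch was found. The reversed control used for the E2F words was not made for this stretch. One other pair shared as many bases, dlat-1 and cts-1, in a run of T and C (TTTTTTCTTTTCT) found in 2 IDR windows and 10 promoter windows, and no other pair shared more than 11 bases. What binds the stretch shared by dld-1 and dlat-1 was not tested. At dlat-1 that stretch lay in the gap to the divergent gene fntb-1, nearer to fntb-1.

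A list of 34 other genes of the pathway and around it had IDR peaks at 21, against 19.0% of all genes, with a median rank of 1890. Besides cycle enzymes it took in cytosolic forms, regulators and lipoylation genes. It also held genes of the branched-chain and glycine cleavage complexes, the pyruvate carrier, carboxylation and the glyoxylate cycle. Highest was pdhk-2, the kinase that switches pyruvate dehydrogenase off by phosphorylating E1, with a signal of 1819 at rank 23. The strongest peaks assigned to pdhk-2 ranked 24 in replicate 1 and 22 in replicate 2. Its window, centred 245 bp upstream of pdhk-2, held an E2F word, as did 13.0% of all IDR windows. No E2F word was in the windows of dbt-1, lias-1, mev-1 and sdhd-1, the genes that follow in rank. Lower in rank, the windows of sdha-1, idh-1, pdp-1, idhb-1 and mdh-1 held one, and the remaining IDR windows of this list did not. Next in rank after pdhk-2 came dbt-1, the E2 gene of the branched-chain complex, at rank 133 with a signal of 1049. It was followed by lias-1, the lipoyl synthase that makes the cofactor of the E2 arms, at rank 471 with a signal of 447. Both pdhk-2 and dbt-1 ranked above aco-2, and pdhk-2 ranked above mdh-2. lipt-1, whose product has a lipoate ligase domain, had a peak at rank 1033, shared with aspm-1.

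Complexes that use DLD-1 as E3 were not bound alike. In the branched-chain complex dbt-1 and bckd-1A had IDR peaks, the latter at rank 3309 and 425 bp inside the gene, whereas bckd-1B had a pooled peak with a signal of 11.6. None of the 3 glycine cleavage genes had an IDR peak. gldc-1 and gcsh-1 had no peak in any list, and gcsh-2 had a pooled peak with a signal of 45.1, under the threshold. The E2 genes were ordered by pooled signal dbt-1 (1049), dlat-1 (50.8) and dlst-1 (46.4), and the latter pair changed order between the pooled list and replicate 2 (37.2 and 38.2). Genes named from the list of 34 beyond its 8 strongest were chosen after their values were seen.

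Succinate dehydrogenase, which joins the cycle to the respiratory chain, had IDR peaks at 3 of 5 genes, where 19.0% of all protein-coding genes had one. These were mev-1, its cytochrome b subunit (signal 398, rank 537, shared with jmjd-4), sdhd-1 (signal 336, rank 653, shared with ilkp-1) and sdha-1, the flavoprotein (signal 253, rank 889). sdhb-1, the iron-sulphur subunit, had a pooled peak with a signal of 30.9. sdha-2 had no pooled peak, but a peak in each replicate list, with signals of 7.45 at rank 6771 in replicate 1 and 17.8 at rank 8307 in replicate 2. Succinyl-CoA ligase genes were bound at 3 of 4, with sucl-1 strongest (signal 175, rank 1352) and sucg-1 without an IDR peak. NAD-dependent isocitrate dehydrogenase was bound at 3 of 4 genes, idha-1, idhb-1 and idhg-1, at ranks from 1890 to 3138. The idhg-1 peak was shared with mlcd-1. With the members included, each enzyme of the cycle had an IDR peak at 1 or more of its genes, which for 2-oxoglutarate dehydrogenase was only the shared E3 gene dld-1. For mitochondrial aconitase it was the aco-2 peak, which is nearer to the start of eef-1B.1. The number of genes counted differs between enzymes, up to 5 for succinate dehydrogenase.

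**Figure D4:**
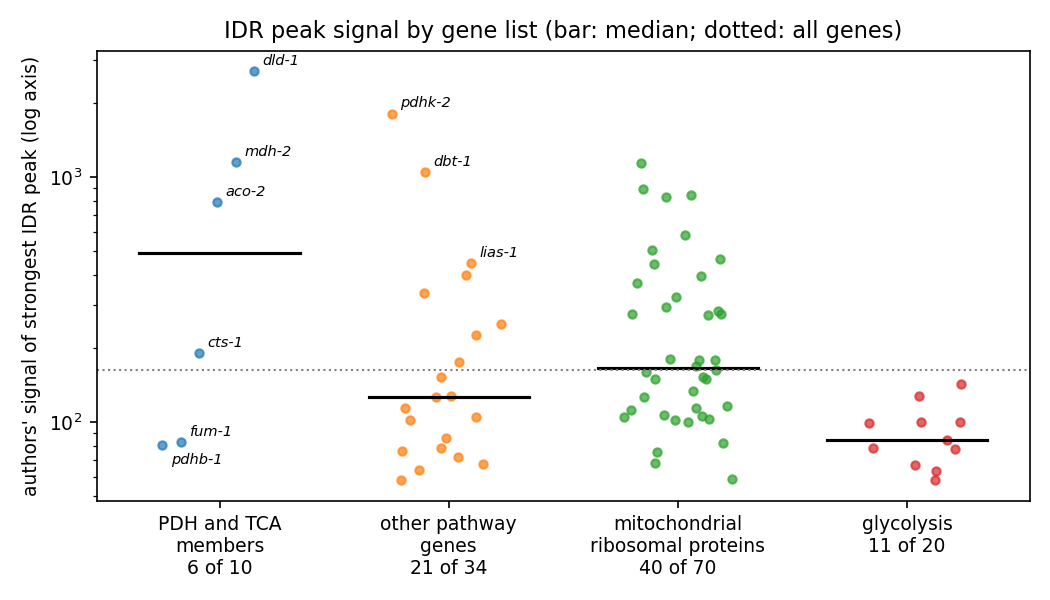
Authors' signal (log axis) of the strongest IDR peak for each gene with one among the 10 members, the 34 other pathway genes, 70 mitochondrial ribosomal protein genes and 20 glycolysis genes; bars are medians and the dotted line is the median of 163 over all genes with an IDR peak. Medians are 491 (192 without dld-1, which led to the choice of the list), 126, 166 and 84.2 in that order, and the highest glycolysis point is at 143.

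Related gene lists were set beside the 9 members other than dld-1, since dld-1 led to the choice of the list. Of these 9 genes, 55.6% had an IDR peak, with a median rank of 1225 and a median signal of 192. Over all protein-coding genes 19.0% had one by the same rule, with a median rank of 1450, and 2.82% had one among the 383 strongest. Mitochondrial ribosomal protein genes had IDR peaks at 40 of 70 with a median rank of 1420, and 5 of them had one among the 383 strongest. Glycolysis genes, in a list that also took in ldh-1 and the gluconeogenesis gene fbp-1 (rank 2392), had IDR peaks at 11 of 20. Their median rank was 2768, and none was among the 383 strongest. The strongest of these were hxk-2, a hexokinase (signal 143, rank 1653, in a peak shared with cdk-9), ldh-1, lactate dehydrogenase (signal 127, rank 1875), and hxk-3 (signal 101, rank 2384). The shares were 57.1% for the mitochondrial ribosomal protein genes and 55.0% for glycolysis, with median signals of 166 and 84.2, and no test of these differences was made.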

How the data were processed

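LIN-35 ChIP-seq peaks came from 2 replicates of 1 group. Per the submitters' deposited file manifest, replicate lists were called against a control, the pooled list on both replicates, and the IDR list from all 3. No source used here names the aligner, caller, threshold or depth. The authors' deposited signal value per peak was used to rank peaks within a list. The deposited −log10 q-value was not used for ranking, since all IDR peaks share its highest value. Tested on the files, the IDR list is exactly the strongest 3838 of the pooled peaks. Genes came from Ensembl release 115 (WBcel235, the assembly of ce11), coordinates are printed from 1, and sequences were read from the RefSeq genome of that assembly. Distances run from summit (start plus offset) to the 5′ end of the gene record. Replicate peaks were matched to IDR peaks by an overlap of at least 1 bp. Python 3.11.15 and pandas 2.3.3 were used, and assignment and motif search were tested on simulated data.

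The members and lists were chosen with earlier results of these data known, so no test was made. Named genes were the members, genes sharing their peaks, the 8 strongest of the other pathway list, the 3 strongest glycolysis genes and the rank neighbours of dld-1. Others, among them ufd-2, tpi-1, enol-1 and pyk-1, were named after their values were seen. The symbol pdhx-1 was not matched. Alternatives were other windows, transcript starts, nearest start only, other list thresholds and single replicates. Of the ce10 lists only the length of the IDR list was used.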

Additional observations from a re-analysis of the deposited data

How the results depend on the processing

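No paired analysis was possible because there is 1 group. The count of 6 members with an IDR peak ranged from 4 (nearest start only, or the stronger 1919 IDR peaks) to 8. The 8 came with the strongest 4839 pooled peaks, as many as the ce10 IDR list holds, when dlat-1 and dlst-1 passed (21.7% of all genes then did), and a window of 2000 bp added ogdh-1. With as many peaks from 1 replicate, 5 and 6 members remained, fum-1 being lost without replicate 2. Within 250 bp 2 members were bound. The median rank was 722, 164 among the stronger 1919 peaks, 1225 without dld-1 (chosen after seeing the data), and from 372 to 799 with 1 replicate left out. Among the stronger 1919 peaks 11 other pathway genes and 2 glycolysis genes were bound. Shares of all genes were not computed for windows of 250 or 2000 bp, the stronger 1919 peaks or single replicates. Changes in those counts therefore cannot be read as particular to these genes. Counting nearest starts only left 26 mitochondrial ribosomal protein genes. An E2F word was found at 1 member within 50 bp and at 2 within 100 bp, and the words reversed, as a control, at 0 and at 1 (aco-2). Over all windows the reversed words were in 8.36% of IDR and 1.81% of promoter windows within 50 bp, and in 11.3% and 3.70% within 100 bp. From 50 to 100 bp the CHR count went from 2 to 4 and the GC box from 0 to 1, a comparison chosen after seeing the data. The other 33 of 45 alternative values stayed within 1.5 times the main count, or for the median rank within 1 SD between replicates. Unknown depth limits what the missing peaks at pdha-1 show: binding was not detected there.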

Other observations

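Genes around the pathway that feed or drain it were also measured. The carboxykinase genes pck-1 and pck-2, which lead from oxaloacetate towards glucose, had IDR peaks at ranks 3461 and 3010, the former 926 bp upstream of its gene and the latter 131 bp inside it. Pyruvate carboxylase pyc-1 and the glyoxylate cycle gene icl-1 had pooled peaks under the threshold, with signals of 49.9 and 44.8. Of the mitochondrial pyruvate carrier genes, mpc-1 had an IDR peak at rank 3717, 673 bp inside the gene, and mpc-2 had a pooled peak with a signal of 21.8. The phosphatase gene pdp-1 had an IDR peak at rank 1861, against rank 23 for the kinase gene pdhk-2. In glycolysis no peak was assigned to tpi-1, triosephosphate isomerase, in any of the 4 lists, while enol-1 and pyk-1 had IDR peaks inside the gene, 916 and 4257 bp from the 5′ end. At aco-1, the cytosolic aconitase, the strongest peak assigned to the gene ranked 1682 in replicate 1 and 5166 in replicate 2. Whether these are the same peak was not tested. For the gene of the mitochondrial enzyme, aco-2, the ranks were 372 and 180.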
